A study of Homo sapiens with 6 samples.

Results

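The comparison described here is that of HepG2 cells carrying an siRNA against HNF4A with HepG2 cells carrying a control siRNA, both after 24 h with TGF-beta. It rests on 2 of the 6 arrays of the study, 1 on each side, named siHNF4a and siControl below. HepG2 is a human hepatoblastoma line that keeps much of the hepatocyte's gene programme. Cells with each siRNA were taken at 3 times, without TGF-beta (0 h) and with it at 3 ng/ml for 1.5 h and for 24 h, and hybridised 1 Affymetrix array for each of the 6 combinations, with no replicates. The labels state neither whether the arrays came from 1 transfection nor how long the siRNA had acted before TGF-beta was added. Since both 24 h arrays carry TGF-beta and no 24 h array without it was used here, what the siRNA did at 24 h cannot be told apart from what it did to the response to TGF-beta or from the longer time after transfection. Each arm has 1 siRNA label, so transcripts that an siRNA lowers besides its target cannot be told apart from effects of the target. The transcript of HNF4A itself is not analysed here, and no value below checks the knockdown. Each of 19775 genes is represented by 1 probe set, the brightest on average over the 6 arrays among those carrying a single gene symbol. The 11921 genes with a mean signal above 12.9, the median of all signals, are the ones counted.

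HNF4A is a nuclear receptor that sits on the promoters and enhancers of a large share of the genes that make a hepatocyte, among them those for apolipoproteins, coagulation factors, bile acid and drug metabolism. It binds direct repeats of a short nuclear receptor half-site and works together with FOXA and C/EBP factors. TGF-beta acts through receptors that phosphorylate Smad proteins, and in hepatocytes it slows proliferation, favours cell death or a partial shift towards mesenchymal traits, and raises matrix and protease inhibitor genes. Liver cells that lose HNF4A are known to lose hepatocyte products and to gain progenitor and mesenchymal ones.

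The 24 h arrays correlated at r = 0.985 over all genes, and the pairs at 0 and 1.5 h at 0.988 and 0.985. All 12 defining hepatocyte markers (ALB, AFP, TTR, TF, APOA1, APOB, APOH, SERPINA1, AHSG, FGB, AMBP and RBP4) lay above 12.9 on both 24 h arrays, with summed signals of 70170 in siControl and 72513 in siHNF4a. Of 16 markers of blood, endothelial, stellate or fibroblast cells, 8 lay above 12.9 on the siControl array and 9 on the siHNF4a array, with summed signals of 426 and 355. The monocyte marker CD14 (100.3 in siControl and 25.3 in siHNF4a) and the lymphatic endothelial marker LYVE1 (2.5 in siControl and 50.4 in siHNF4a) moved in opposite directions between these arrays, and their part in other results was not tested. For GAPDH the 3'/5' ratio of control signals at 24 h was 0.949 in siControl and 0.946 in siHNF4a. The siControl array at 0 h stood apart in the 5' probe set of the AFFX-HUMRGE control, with 8600 against 69.8 to 737 on the other 5 arrays. It was also the highest in the middle probe set (1333 against 53 to 259) and the 3' probe set (462 against 87.6 to 152). This array is no part of the 24 h comparison, but it enters the 0 h difference, the limma fit and the choice of probe sets. Chosen without it, 364 genes were 2-fold lower and 269 were 2-fold higher at 24 h, against 364 and 266 with it.

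With signals under 12.9 set to 12.9, 364 of 11921 genes (3.05%) were at least 2-fold lower in siHNF4a at 24 h and 266 (2.23%) at least 2-fold higher. At 4-fold the numbers were 19 and 17. Both directions together made 630 genes at 24 h, where the pair at 1.5 h gave 573 and the pair at 0 h gave 369. The median difference of all genes at 24 h was -0.03 on the log2 scale, and the central 95% of genes lay between -1.05 and 0.96. Any difference below 0 was held by 53.1% of genes and any above 0 by 45.6%. The genes next to the threshold lay at -1 and -0.995 on the lower side and at 1 and 0.999 on the higher side, and nothing but the threshold separates them.

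Dim genes supplied most of these differences. Among 3084 genes with a mean signal up to 50, 11.2% passed 2-fold in either direction (204 lower and 140 higher), among 3823 genes between 50 and 200 it was 4.47%, and among 3757 genes between 200 and 1000 it was 2.71%. Of 1257 genes above 1000 only 2 were 2-fold lower and 11 were 2-fold higher. Counted over the 7373 genes with a signal above 100 on 1 of the 24 h arrays, 137 (1.86%) were 2-fold lower and 110 (1.49%) 2-fold higher. A probe set under 12.9 on 1 side gives only a bound, and this held for 86 of the 364 lower and 57 of the 266 higher genes.

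**Figure D1:**
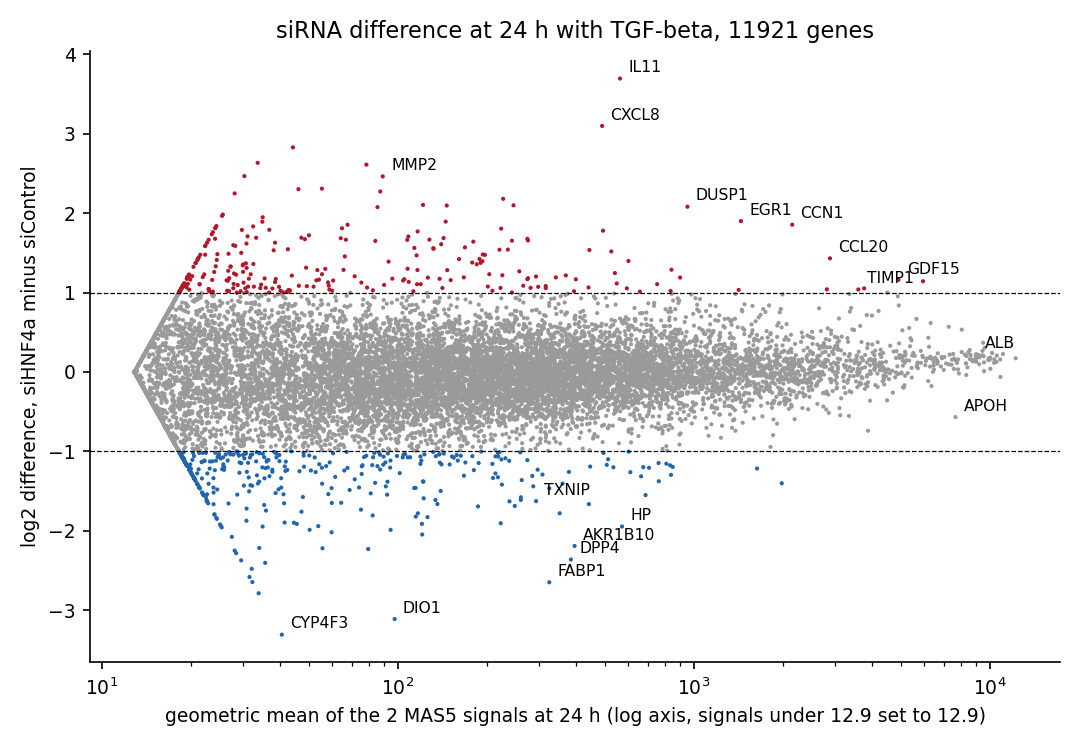
Log2 difference between siHNF4a and siControl at 24 h (vertical axis) against the geometric mean of both MAS5 signals (horizontal log axis) for 11921 genes, 1 point a gene, with dashed lines at 2-fold and the genes beyond them coloured. The cloud is wide among dim genes and narrow among bright ones, where 2 genes above a mean signal of 1000 lie 2-fold lower and 11 lie 2-fold higher.

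Second measurements on the same arrays bore on the sign. Genes that were 2-fold lower had 219 other probe sets above 12.9 on 1 of the 24 h arrays, and 170 of these (77.6%) were also lower. For genes that were 2-fold higher 149 of 184 (81.0%) were also higher, and over all genes the other probe sets had the sign of the chosen one in 64.2%. Among genes with a signal above 100 the shares were 99 of 110 (90.0%) for lower genes and 109 of 126 (86.5%) for higher ones.

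A standard error came from a limma fit with siRNA, time and a term for the siRNA at 24 h. Its 1 residual degree of freedom is the disagreement between the siRNA differences at 0 and at 1.5 h, and limma added 8.40 degrees from its prior, so the 24 h pair is assumed to vary like the earlier ones. By this fit 65 genes (0.545%) were lower and 45 (0.377%) higher at 24 h at an adjusted p under 0.05. These calls depend on the setting: limma made none with the floor at the 75th percentile of signals, with all probe sets of a gene averaged, without probe sets ending in _x_at or _s_at, or without its intensity trend. With no filter on dim genes limma called 656. The ± values below are this fit's standard errors, and signals and differences at 3 times are given beside them.

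Whether the difference at 24 h was already there at the earlier times can be read from 4 arrays that it does not use. Of the 364 genes that were 2-fold lower at 24 h, 284 (78.0%) were lower at 0 h, 280 (76.9%) at 1.5 h and 229 (62.9%) at both, against 51.7%, 54.7% and 32.2% of all genes. Of the 266 that were 2-fold higher, 193 (72.6%) were higher at 0 h, 171 (64.3%) at 1.5 h and 139 (52.3%) at both, against 47.2%, 44.1% and 24.6% of all genes. Among genes with a signal above 100, 122 of 137 lower genes (89.1%) and 92 of 110 higher genes (83.6%) had the same sign at both earlier times, against 31.6% and 27.9% of all such genes. The sizes were smaller earlier: the median of the mean difference at 0 and 1.5 h was -0.48 for the lower genes, whose median at 24 h was -1.22, and 0.33 for the higher genes, whose median at 24 h was 1.21. These medians at 24 h follow from the choice of genes. Both earlier pairs were also 2-fold for 43 of the lower and 22 of the higher genes, and 25 and 30 had the opposite sign at both.

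For the mean of 0 and 1.5 h limma called 95 genes lower (0.797%) and 127 higher (1.07%). Of the genes that were 2-fold lower at 24 h, 58 were among those called lower earlier, and of those 2-fold higher, 29 were among those called higher earlier. A test of the change itself, the difference at 24 h minus the earlier mean, gave 0 genes (0%) at an adjusted p under 0.05 by limma. Its smallest adjusted p was 0.0781. Before adjustment 541 genes were under 0.05, where 596 would be reached with no change in any gene. The number depends on the setting, with 4 genes called under a floor at the 40th percentile, 24 with a pseudocount and 639 with no filter on dim genes. In simulated data this test found 32.5% of 2-fold changes and 90.0% of 4-fold ones, with 5 and 21 false calls. The simulated noise was independent between genes, had the spreads that limma had estimated and met no floor. These rates therefore hold only where that model is true, and the share found in the real data is not known.

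**Figure D2:**
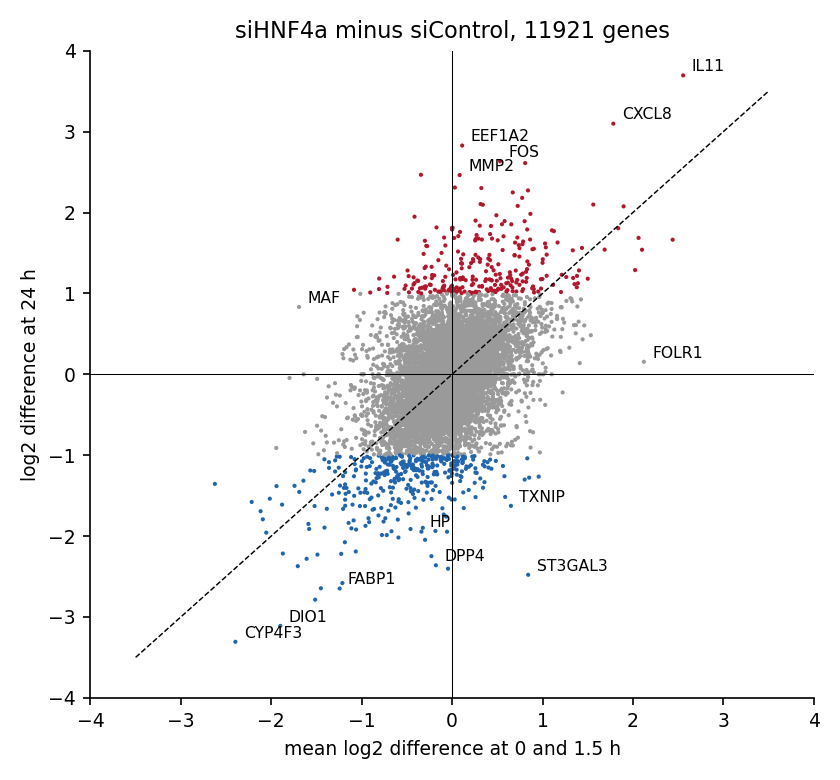
Log2 difference between siHNF4a and siControl at 24 h (vertical axis) against the mean of the differences at 0 and 1.5 h (horizontal axis) for 11921 genes, with some genes named, 2-fold differences at 24 h coloured and a dashed line where both are equal. The axes share no array; genes far from 0 at 24 h mostly have the same sign earlier, while TXNIP and DPP4 are far below 0 at 24 h, at -1.63 and -2.36, with earlier means of 0.65 and -0.18 in the plotted probe sets.

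DIO1, the deiodinase that activates thyroid hormone in liver, had the lowest difference at 24 h among genes above 12.9 on both arrays and read 431, 382 and 287 in siControl and 110.2, 107 and 33.2 in siHNF4a at 0, 1.5 and 24 h. The siHNF4a array was the lower one at each time, and the 24 h difference of -3.11 ± 0.28 exceeded those at 0 h (-1.97) and 1.5 h (-1.83). FABP1, the liver's fatty acid carrier, read 1049, 936 and 814 in siControl and 386, 453 and 129.8 in siHNF4a, with a difference of -2.65 ± 0.23 at 24 h. In both genes the signal was also lower at 24 h than at 0 h within each arm, in larger proportion in siHNF4a. CYP4F3, a leukotriene and fatty acid hydroxylase, read 150.3, 140.2 and 128 in siControl and 21.9, 34.7 and 10.6 in siHNF4a, so that its 24 h difference of -3.31 is a bound set by the floor. ALDH8A1 (89 in siControl and 10.3 in siHNF4a at 24 h), an aldehyde dehydrogenase, and LGALS2 (80.7 in siControl and 8.8 in siHNF4a), a galectin, were likewise under 12.9 with the HNF4A siRNA and lower there at both earlier times.

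The list of textbook HNF4A targets held 32 genes of the table, of which 25 passed the brightness filter. Its members, like those of every list below, were chosen with earlier results of these data known. The shares of all genes set beside a list are therefore a description and no test. At 24 h 18 of the 25 were lower and 7 higher, 7 were 2-fold lower and none 2-fold higher, against 3.05% and 2.23% of all genes. Their median difference at 24 h was -0.43, following -0.46 and -0.59 in the pairs at 0 and 1.5 h, with all-gene medians of -0.03, -0.01 and -0.05 in this order of times at 24, 0 and 1.5 h. By limma 5 were lower at 24 h, against 0.545% of all genes, and 17 of 25 were lower at all 3 times, which 23.7% of all genes were. The 7 genes at 2-fold were DIO1, FABP1, LEAP2, CIDEB, CIDEC, SERPINC1 and APOC3. CIDEB, a lipid droplet protein needed to lipidate lipoproteins, read 725, 738 and 431 in siControl and 406, 282 and 115 in siHNF4a, a difference of -1.90 ± 0.25 at 24 h. CIDEC, which enlarges lipid droplets, read 179, 185 and 122 in siControl and 56.7, 56 and 44.7 in siHNF4a, about equally lower at the 3 times. SERPINC1, which encodes antithrombin, read 345 in siControl and 138 in siHNF4a at 24 h (-1.33 ± 0.23) and differed by -0.82 and -0.93 earlier. APOC3, an inhibitor of triglyceride clearance, read 811 in siControl and 353 in siHNF4a at 24 h (-1.20 ± 0.24).

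Other genes of the same list did not reach 2-fold. Lower among them were CYP8B1 (-0.98, under 12.9 in siHNF4a), PKLR (-0.85), TTR (-0.81) and F7 (-0.71). The genes that follow are among the 7 of the list that were higher. TF, the plasma iron carrier, read 7640.5 in siControl and 8887 in siHNF4a at 24 h. APOB differed by 0.16, APOA2 by 0.21 and SERPINA1 by 0.12, and their differences at 0 and 1.5 h lay between -0.09 and 0.13. TF, APOB, APOA2 and SERPINA1 read from 6265 to 11339 at 24 h. The highest signals of any probe set were 11522 in siControl and 13116 in siHNF4a. Whether such bright probe sets still follow a change was not tested. CYP3A4, the main drug-oxidising cytochrome of adult liver, was at 34.5 in siControl and 58 in siHNF4a, the highest difference of the list (0.75 ± 0.40).

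The promoters of the lower genes were read for CAAAGTCCA, the commonly cited core of the HNF4 site, on both strands and without any other motif, in the RefSeq window from 250 bases before to 50 after the gene's start (build GRCh38.p14). It occurred in 9 of 288 promoters of the genes 2-fold lower at 24 h (3.13%), in 0 of 205 of the genes 2-fold higher, in 49 of 9735 of all genes counted (0.503%) and in 135 of 35116 of all promoters (0.384%). The 4 promoters below belong to the genes with the lowest differences among those above 12.9 on both arrays, printed 5' to 3' along the gene's strand in lower case with the motif in capitals, so that its place relative to the start can be seen. LEAP2 (a liver antimicrobial peptide) lies at chr5:132873418-132873717 on the plus strand, CIDEB at chr14:24307928-24308227 on the minus strand, SLCO2B1 (an organic anion transporter) at chr11:75159582-75159881 on the plus strand and PDZK1 (a scaffold of membrane transporters) at chr1:145707351-145707650 on the minus strand.
LEAP2: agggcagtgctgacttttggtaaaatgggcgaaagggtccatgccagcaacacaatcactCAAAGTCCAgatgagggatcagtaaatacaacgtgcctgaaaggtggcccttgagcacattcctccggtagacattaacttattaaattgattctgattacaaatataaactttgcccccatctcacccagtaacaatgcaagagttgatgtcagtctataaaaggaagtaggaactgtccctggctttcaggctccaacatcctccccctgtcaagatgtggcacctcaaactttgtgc
CIDEB: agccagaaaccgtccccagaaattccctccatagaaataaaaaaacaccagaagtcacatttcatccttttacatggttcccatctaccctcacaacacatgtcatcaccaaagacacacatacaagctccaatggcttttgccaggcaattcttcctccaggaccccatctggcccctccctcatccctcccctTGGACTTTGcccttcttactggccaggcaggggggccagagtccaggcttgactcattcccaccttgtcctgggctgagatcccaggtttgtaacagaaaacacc
SLCO2B1: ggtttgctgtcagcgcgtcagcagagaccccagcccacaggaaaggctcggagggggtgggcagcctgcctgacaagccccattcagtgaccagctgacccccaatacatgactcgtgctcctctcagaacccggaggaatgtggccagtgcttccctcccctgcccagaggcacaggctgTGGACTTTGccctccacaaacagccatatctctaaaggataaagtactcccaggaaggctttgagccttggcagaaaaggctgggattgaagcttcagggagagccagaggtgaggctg
PDZK1: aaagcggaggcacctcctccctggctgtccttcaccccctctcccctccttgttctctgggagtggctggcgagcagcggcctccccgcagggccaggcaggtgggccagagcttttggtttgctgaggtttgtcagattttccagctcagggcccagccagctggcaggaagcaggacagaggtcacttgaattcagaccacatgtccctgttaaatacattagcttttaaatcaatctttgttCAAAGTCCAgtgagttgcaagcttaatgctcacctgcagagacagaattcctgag
The motif begins 190 bases before the start in LEAP2 and 5 before it in PDZK1, both on the gene's own strand, and 55 before it in CIDEB and 69 before it in SLCO2B1, both on the opposite strand. A match is a description of the letters and not evidence of binding, and the absence of a match says nothing about other forms of the site or about enhancers.

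LEAP2 read 159, 124 and 56.5 in siControl and 60.4, 63.3 and 13.4 in siHNF4a at 0, 1.5 and 24 h, a difference of -2.08 ± 0.36 at 24 h. SLCO2B1 read 100.5, 109 and 80 in siControl and 52.9, 29.3 and 21.5 in siHNF4a, with -1.90 ± 0.42 at 24 h and a like difference of -1.90 at 1.5 h. PDZK1 read 114, 123 and 217 in siControl and 73.6, 68.1 and 63.1 in siHNF4a. Each later array was higher in siControl and lower in siHNF4a, and its difference was -0.63, -0.85 and -1.78 in turn. The other 5 genes with the motif were SMLR1 (-1.69), PIPOX, the peroxisomal sarcosine oxidase (-1.41), PUS10, a pseudouridine synthase (-1.23), CCR6, a chemokine receptor (-1.76), and PPIP5K1 (-1.05, under 12.9 in siHNF4a). SMLR1, PIPOX and PUS10 were lower at both earlier times. CCR6 read 58 against 58.6 at 0 h and was apart at 24 h alone (87 in siControl and 25.7 in siHNF4a).

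**Figure D3:**
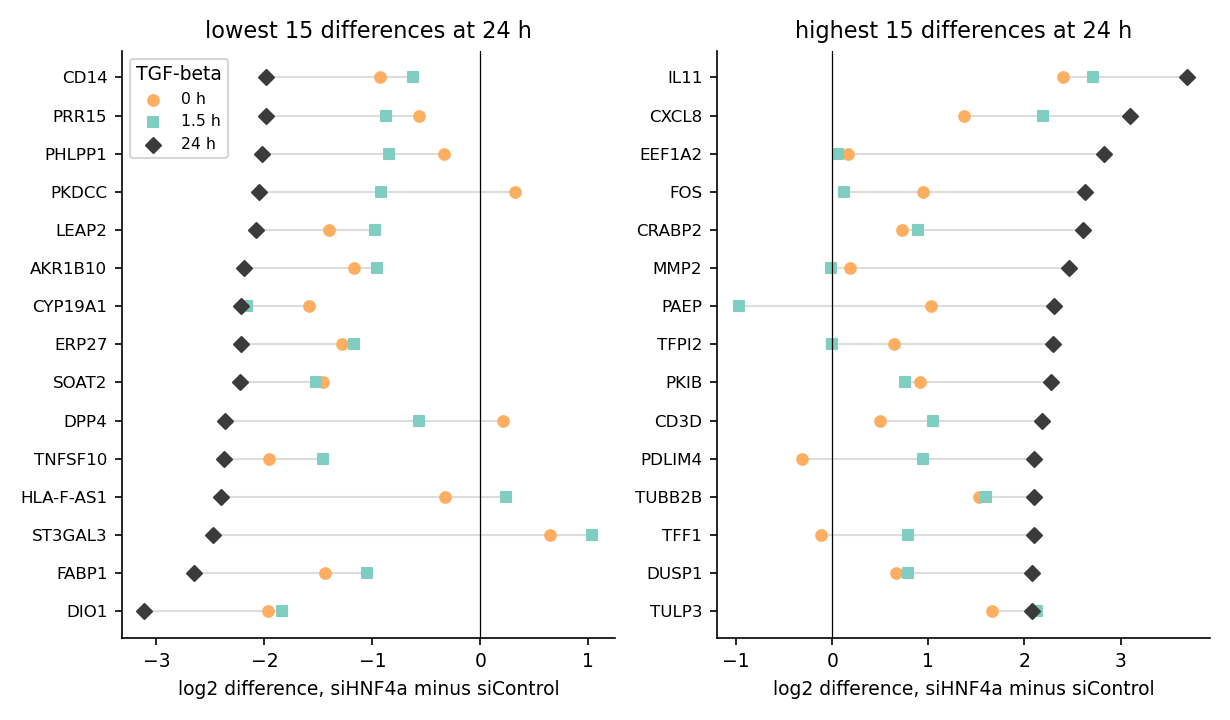
The 15 lowest (left) and 15 highest (right) 24 h differences among genes above 12.9 on both 24 h arrays, with the log2 difference between siHNF4a and siControl at 0, 1.5 and 24 h as 3 points a gene. DIO1, FABP1 and IL11 are on the same side of 0 at all 3 times, whereas MMP2 and EEF1A2 are near 0 at 0 h.

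Drug and xenobiotic metabolism gave the largest number of 2-fold lower genes of any list, but not the largest share. Of 58 members with a single-symbol probe set 44 passed the filter. At 24 h 9 of these were 2-fold lower and none 2-fold higher (3.05% and 2.23% of all genes). The share was larger in textbook HNF4A targets (7 of 25) and interferon-response genes (7 of 29), and about equal in fatty acid and lipid droplet genes (7 of 34). At any size 35 were lower and 7 higher, against 53.1% and 45.6% of all genes, with a median of -0.36. AKR1B10, an aldo-keto reductase common in liver tumours, read 3139, 2939.5 and 845 in siControl and 1394, 1512 and 185 in siHNF4a, a difference of -2.19 ± 0.18 at 24 h. Its signal was lower at 24 h than before in both arms, and siHNF4a was below siControl throughout. ADH4, which oxidises alcohols and retinol, read 652, 586 and 238 in siControl and 349, 307 and 66.9 in siHNF4a (-1.83 ± 0.23), and ADH6 read 224 in siControl and 100.0 in siHNF4a at 24 h (-1.16 ± 0.23). GSTA1, a glutathione transferase, read 205, 192 and 44.7 in siControl and 43, 50.3 and 9.9 in siHNF4a, so that it was -2.25 apart at 0 h already and at least -1.79 at 24 h, where the floor sets the bound. Another probe set of GSTA1 read 27.2 and 27.5 at 24 h. CYP4V2, dim throughout, was -1.24 at 24 h, a bound since siHNF4a read 10.5, but 0.38 at 1.5 h (15.1 in siControl and 19.7 in siHNF4a). Its other probe set, near the floor, read 10.2 in siControl and 14.2 in siHNF4a at 24 h. The remaining 2-fold lower genes, NAT2, CYP4F2 and UGT2A3, lay between -1.08 and -1.05 and were named after their values were seen.

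Fatty acid oxidation and lipid droplet genes numbered 34 after the filter, with 7 of them 2-fold lower and 1 2-fold higher (3.05% and 2.23% of all genes), and a median of -0.33 at 24 h (-0.28 at 0 h and -0.38 at 1.5 h). SOAT2, which makes cholesteryl esters in liver and intestine, read 259, 279 and 172 in siControl and 94.7, 97 and 36.7 in siHNF4a (-2.23 ± 0.29 at 24 h). HADHA, the alpha subunit of the mitochondrial trifunctional protein, differed by -1.26, and its partner HADHB by -0.39, both chosen after their values were seen. The 2-fold differences of PEX11A (-1.44) and ACSM3 (-1.27) are not borne out by their other probe sets, which read 27.2 and 27.3 for PEX11A and 28.3 and 31.9 for ACSM3. PLIN2, the coat protein of lipid droplets, was the member that was 2-fold higher, at 1.14 after 0.65 and 0.98.

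Among bile acid genes the 2-fold differences were those of transporters. Of 14 genes that passed the filter, 3 were 2-fold lower and none 2-fold higher (3.05% and 2.23% of all genes). At any size 8 were lower and 6 higher, close to the 53.1% and 45.6% of all genes. The 2-fold genes were SLCO2B1 and both subunits of the basolateral bile acid exporter, SLC51A (59 in siControl and 16.1 in siHNF4a at 24 h) and SLC51B (99.3 in siControl and 34.2 in siHNF4a). SLC51B differed by -1.55 and -2.49 in the earlier pairs and by -1.54 ± 0.39 at 24 h, and SLC51A by -0.62, -1.30 and -1.87 ± 0.45. The earlier differences of SLC51A are bounds set by the floor, since siHNF4a read 12.3 at 0 h and 7.2 at 1.5 h. In siControl SLC51A read 19.8, 31.7 and 59 in turn. CYP8B1, the sterol 12-alpha-hydroxylase, read 25.5 in siControl and 9.1 in siHNF4a, close to the floor. The median of the list, -0.30, changed sign to 0.11 with the floor at the 75th percentile.

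Secreted liver proteins were divided. Coagulation and fibrinolysis genes had 12 of 18 lower, against 53.1% of all genes, with a median of -0.42 (0.02 at 0 h and -0.13 at 1.5 h). SERPINC1 alone of the 18 was 2-fold lower, against 3.05% of all genes. F10 read 109.8, 149.8 and 196 in siControl and 89.6, 124 and 106 in siHNF4a, a difference of -0.89 ± 0.29 at 24 h, while PROZ (-0.94) and SERPINA10 (-0.89) were of similar size. FGB, a fibrinogen chain, was the other way, at 616 in siControl and 837 in siHNF4a (0.84, 0.94 and 0.44 in turn). Complement genes had 14 of 17 lower, against 53.1% of all genes, and a median of -0.26. Of the 17, 1 was 2-fold lower, against 3.05% of all genes: C4BPB, a chain of the C4b-binding protein. C4BPB read 482, 554 and 473 in siControl and 299.5, 311 and 174 in siHNF4a (-1.44 ± 0.23). CD59, the cell surface inhibitor of the terminal complex, read 1223, 1110.2 and 1646 in siControl and 484, 537 and 927 in siHNF4a, and its difference was smaller at 24 h (-0.83) than at 0 h (-1.34). C3 was higher, at 2985 in siControl and 4464 in siHNF4a (0.58).

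Among plasma carriers and protease inhibitors 13 of 27 were lower and 14 higher, against 53.1% and 45.6% of all genes. The median of 0.09 turned to -0.03 under quantile normalization. Of the 27, 2 were 2-fold lower, against 3.05% of all genes. HP, haptoglobin, which binds free haemoglobin, was 2-fold lower besides LEAP2. It read 634, 596 and 1123 in siControl and 438, 539 and 292 in siHNF4a: at 24 h the signal stood above that at 0 h in siControl and below it in siHNF4a, giving -1.95 ± 0.22 at 24 h after -0.53 and -0.14. SERPINA7, the thyroxine-binding globulin, read 1062, 909.5 and 1145 in siControl and 1003, 1016 and 576 in siHNF4a, with -0.99 ± 0.19 at 24 h and -0.08 and 0.16 earlier. TTR, another thyroid hormone carrier, read 860.0 in siControl and 492 in siHNF4a at 24 h (-0.81 ± 0.19), and ORM1, an acute-phase protein, 3773 in siControl and 2587 in siHNF4a (-0.54 ± 0.16). APOM, which carries sphingosine-1-phosphate, read 1023 in siControl and 446 in siHNF4a (-1.20 ± 0.19), and APOH 9322 in siControl and 6291 in siHNF4a (-0.57 ± 0.13). Of 17 apolipoprotein and lipoprotein genes, 2 were 2-fold lower (APOC3 and APOM) and 1, the dim CETP, 2-fold higher. The shares of all genes were 3.05% and 2.23%, and the median of this list was -0.13.

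Beyond these lists lay DPP4, a surface peptidase that cleaves incretins and chemokines. DPP4 read 210.2, 546 and 872 in siControl and 243, 369 and 169.6 in siHNF4a at 0, 1.5 and 24 h. In siControl each later time was higher than the one before, and in siHNF4a the 1.5 h array was the highest and the 24 h array under that of 0 h, so that the arms stood -2.36 ± 0.29 apart at 24 h after 0.21 and -0.57. The turn is that of this probe set alone: the other 2 read 415 and 252 in siControl and 292 and 159.5 in siHNF4a at 0 h already, and 544 and 280.1 against 224 and 103 at 24 h, differences of -1.28 and -1.44. TNFSF10, a death ligand, was low with the HNF4A siRNA at all 3 times (-1.96, -1.45 and -2.37), as was CYP19A1, the aromatase (-1.58, -2.16 and -2.22), whose other probe set lay near the floor. ST3GAL3, a sialyltransferase, went from 0.65 and 1.04 to -2.48 ± 0.38, but 1 of its 2 other probe sets had the opposite sign and neither differed by more than 0.28.

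Amino acid, sugar and sterol genes showed few 2-fold differences at 24 h, when 3.05% of all genes were 2-fold lower and 2.23% 2-fold higher. DDC, which makes dopamine and serotonin from their amino acid precursors, was the 2-fold lower gene among 30 amino acid and urea genes, at 643, 623 and 157 in siControl and 344, 329 and 53.9 in siHNF4a (-1.54 ± 0.24). NAGS, which makes the activator of the urea cycle, and BHMT2, a methyltransferase, were 2-fold higher, NAGS at 37.5 in siControl and 119 in siHNF4a and BHMT2 at 111, 101 and 66.2 in siControl and 298, 276 and 196 in siHNF4a with nearly the same difference at each time. Among 24 glucose genes HK1 (51 in siControl and 111 in siHNF4a) was 2-fold higher and none was 2-fold lower, and none of 18 cholesterol synthesis genes reached 2-fold. HMGCS1, which starts sterol synthesis, differed by 2.17 at 1.5 h, where siControl read 141 after 416 at 0 h, and by 0.60 at 24 h. Its other probe set read 182 in siControl and 322 in siHNF4a at 1.5 h and 205 and 249.9 at 24 h. Of 27 liver transcription factors and nuclear receptors none was 2-fold lower, and RORA (47.9, 43.2 and 63.2 in siControl and 82.7, 119 and 216 in siHNF4a), a nuclear receptor, and ONECUT2 (35.6 in siControl and 79.2 in siHNF4a) were 2-fold higher. RORA differed by 1.77 ± 0.36, with 3 of 5 other probe sets of the same sign. GATA4 read 110.0 in siControl and 58 in siHNF4a (-0.92), and FOXA1, FOXA2 and CEBPA, named as members of the list with small differences, were between -0.06 and 0.35.

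**Figure D4:**
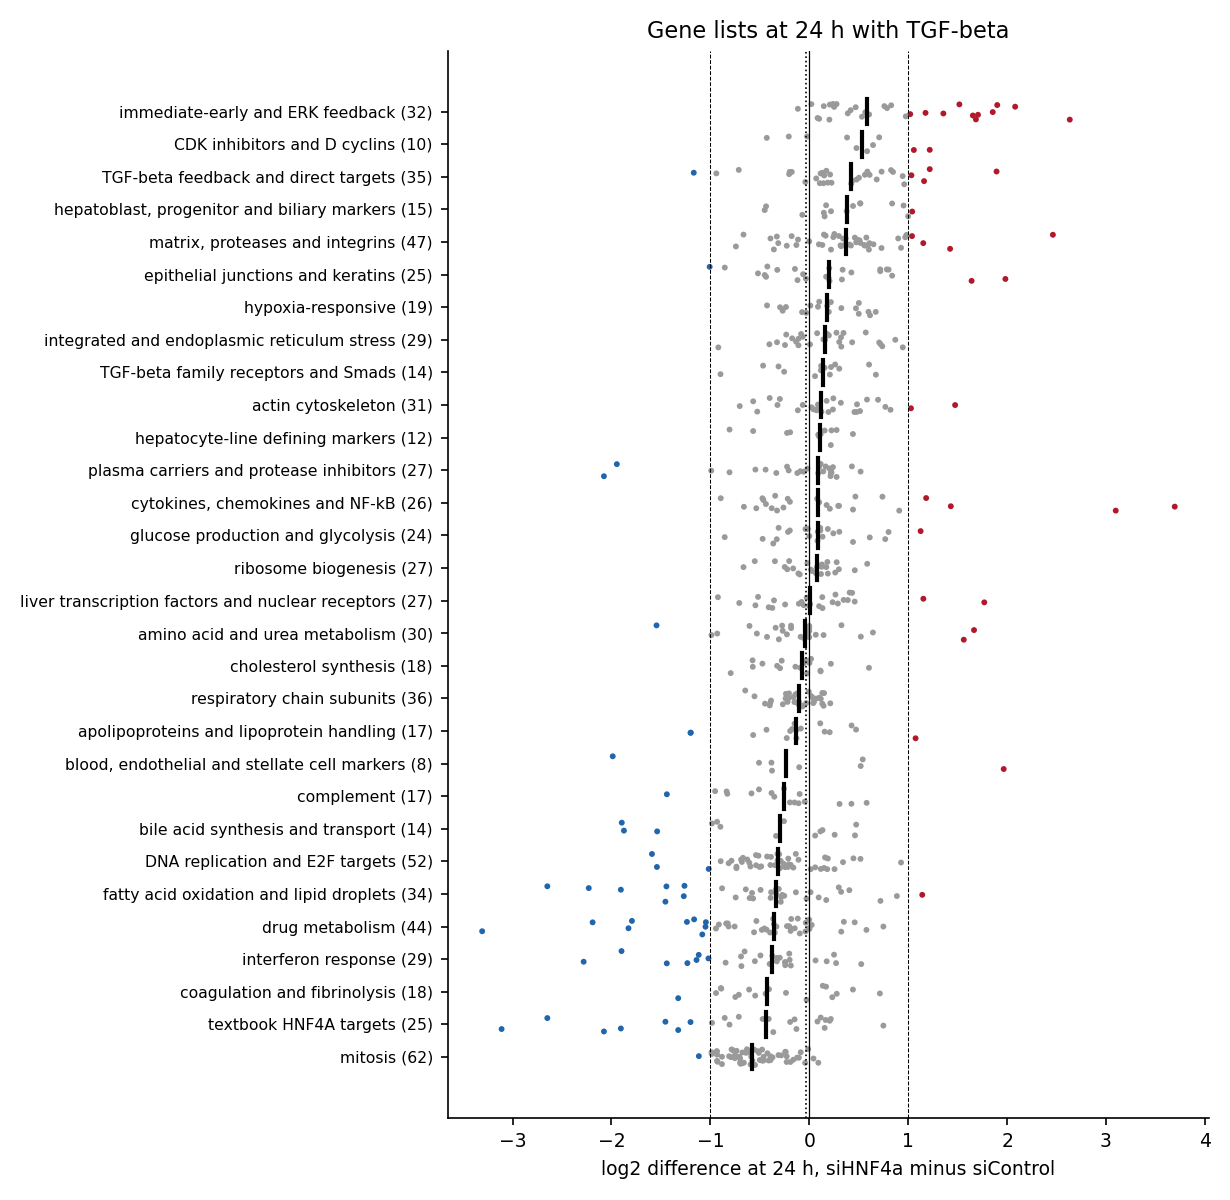
Log2 difference at 24 h of each gene (points) in each list, with the list's median as a black bar, the number of genes that passed the filter in brackets, the median of all genes as a dotted line and 2-fold as dashed lines. Immediate-early genes lie almost wholly above 0 and mitosis genes almost wholly below it, with medians of 0.59 and -0.58.

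Interferon-response genes were mostly lower. Of 40 members with a single-symbol probe set 29 passed the filter, and 24 were lower and 5 higher (53.1% and 45.6% of all genes). Of the 29, 7 were 2-fold lower and none 2-fold higher (3.05% and 2.23% of all genes). The median was -0.37 at 24 h after -0.13 and -0.29. IFIT1, an RNA-binding antiviral protein, read 40.9, 74.2 and 62.7 in siControl and 14, 23.3 and 7.7 in siHNF4a, under 12.9 in siHNF4a at 24 h. IFI27 read 15.1, 27.7 and 86.1 in siControl and 20.7, 8.4 and 23.1 in siHNF4a, with no lower signal at 0 h, and IFI6 53.2, 74.8 and 150.1 in siControl and 35.3, 61.2 and 55.3 in siHNF4a. IFITM1, a membrane protein that blocks virus entry, read 83.4, 100.4 and 251 in siControl and 42.9, 48.5 and 114 in siHNF4a: both arms were highest at 24 h, and the difference lay between -1.14 and -0.96 at all times. The genes of this list are dim, and by limma 1 of 29 was lower at 24 h, against 0.545% of all genes.

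Cell cycle genes were lower together, each by a little. Of 62 mitosis genes 60 were lower at 24 h and 2 higher, against 53.1% lower of all genes, with a median of -0.58 after -0.24 at 0 h and -0.25 at 1.5 h. Only 1, AURKB, the kinase of the chromosomal passenger complex, was 2-fold lower (280.5, 286 and 177 in siControl and 209, 178 and 81.6 in siHNF4a), and limma called 0 of the 62 at 24 h. Of all genes 3.05% were 2-fold lower. At all 3 times 41 of the 62 were lower, against 23.7% of all genes. PBK, a mitotic kinase, read 1614, 1496 and 627 in siControl and 882, 1218 and 317 in siHNF4a (-0.99 ± 0.23), and NDC80 and NUF2, of the complex that ties kinetochores to microtubules, read 225 and 206 in siControl and 118 and 108 in siHNF4a at 24 h. In both arms these signals were lower at 24 h than at 0 h. Genes of 1 programme in the same cells move together, so their number does not count as separate evidence. Fewer cycling cells and less of these RNAs per cell cannot be told apart in such bulk RNA.

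DNA replication and E2F target genes had 40 of 52 lower and 12 higher (53.1% and 45.6% of all genes), with a median of -0.31. Of the 52, 3 were 2-fold lower and none 2-fold higher (3.05% and 2.23% of all genes). CDT1, which loads the replicative helicase, read 427, 295 and 212 in siControl and 264, 218 and 70.5 in siHNF4a (-1.59 ± 0.26), but its other probe set read 33.1 and 40.8 at 24 h. E2F8 and E2F2 read 70.1 and 34.4 in siControl and 24.1 and 17 in siHNF4a at 24 h, and E2F3 was higher, at 162 in siControl and 309 in siHNF4a (0.93). Among 10 CDK inhibitors and D cyclins 7 were higher and 2 were 2-fold higher (45.6% and 2.23% of all genes), with a median of 0.53. CDKN2B, the TGF-beta-induced inhibitor of CDK4 and CDK6, read 24.2, 32.1 and 148 in siControl and 60, 55.2 and 344 in siHNF4a, a difference of 1.22 ± 0.36 that was 1.31 before TGF-beta. CDKN1B, a CDK2 inhibitor, read 804, 808 and 889 in siControl and 1315, 1397 and 1450.5 in siHNF4a, the same step at each time, whereas CDKN1A read 691, 683 and 967 in siControl and 774, 714 and 1511 in siHNF4a and stood apart at 24 h.

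On the higher side the largest difference was that of IL11, a cytokine of the IL-6 family that TGF-beta induces in many cells. It read 28.5, 28.2 and 156 in siControl and 150.3, 185 and 2027 in siHNF4a at 0, 1.5 and 24 h. The siHNF4a array was the higher one at each time, by 2.40 and 2.71 earlier and by 3.70 ± 0.30 at 24 h, which is 13-fold. Its other probe set read 36.8 and 138 at 24 h. CXCL8, the neutrophil-attracting chemokine, read 66, 36.2 and 168 in siControl and 171, 165 and 1435 in siHNF4a, with 3.10 ± 0.33 at 24 h, and its other probe set 56.0 and 706. CCL20, another chemokine, read 2334, 2063 and 1756 in siControl and 2729, 3074 and 4737 in siHNF4a: siControl was lowest and siHNF4a highest at 24 h, which gave 1.43 ± 0.17. ICAM1, the leukocyte adhesion molecule, was higher from 0 h on (1.81, 1.19 and 1.18). Of all 26 cytokine, chemokine and NF-kB genes 12 were lower and 14 higher, close to the 53.1% and 45.6% of all genes, with a median of 0.09. Of the 26, 4 were 2-fold higher, against 2.23% of all genes. NFKBIA, a target and inhibitor of NF-kB outside the naming rule, differed by -0.26.

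Immediate-early genes and the feedback genes of ERK, the kinase that growth factors activate, were higher as a group. Of 32 that passed the filter 31 were higher and 1 lower at 24 h, against 45.6% higher of all genes, 11 were 2-fold higher against 2.23%, and limma called 8 higher against 0.377%. Their median was 0.59 at 24 h after 0.24 and 0.16, and 20 of the 32 were higher at all 3 times, as 17.5% of all genes were. EGR1, a zinc finger factor induced by ERK within minutes, read 352, 371 and 747 in siControl and 416, 449.5 and 2789 in siHNF4a (1.90 ± 0.20), so that the arms were close at 0 h (0.24) and 1.5 h (0.28). Its 2 other probe sets were also higher, at 32.4 and 142, and at 363 and 645. DUSP1, a phosphatase of MAP kinases, read 271, 457 and 463 in siControl and 430.2, 788 and 1958 in siHNF4a (2.08 ± 0.20). CCN1, a secreted matricellular protein, read 419.8, 590.2 and 1131 in siControl and 632, 844 and 4092 in siHNF4a (1.86 ± 0.18). FOS read 17.3, 20 and 13.5 in siControl and 33.3, 21.7 and 83.8 in siHNF4a, dim throughout, and ATF3 45.3, 72.8 and 60.1 in siControl and 86.4, 84 and 196 in siHNF4a. EGR3 was at 35.8 in siControl and 115 in siHNF4a at 24 h (1.68 ± 0.41). At 1.5 h it read 18.5 in siControl and 19.1 in siHNF4a (0.05). At 0 h it read 7.4 in siControl and 10.5 in siHNF4a, both under 12.9, so the floor hides any difference there. The other 5 at 2-fold, named after their values were seen, were DUSP5 (1.65), SPRY4 (1.52), JUNB (1.36), KLF4 (1.18) and IER2 (1.02), while JUN (0.25) and DUSP6 (0.28) were near 0.

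**Figure D5:**
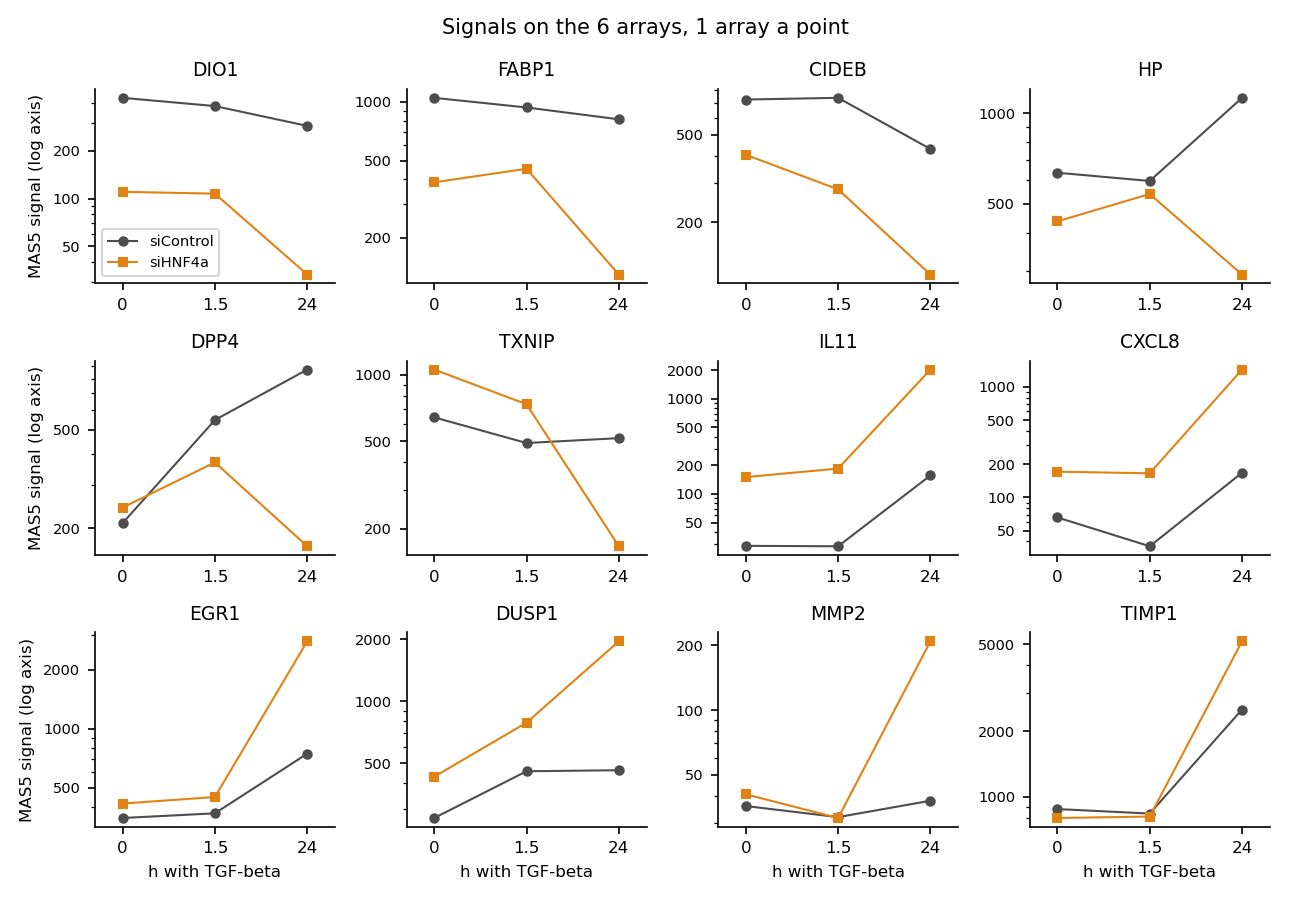
MAS5 signals (log axis) of 12 genes on the 6 arrays by hours with TGF-beta, the times spaced evenly, with siControl and siHNF4a as 2 lines of 3 single arrays. DIO1 and FABP1 are apart at every time, HP, DPP4 and TXNIP are farthest below siControl at 24 h, and EGR1, MMP2 and TIMP1 farthest above it at 24 h.

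Genes of the TGF-beta pathway were higher in part. Of 35 feedback genes and direct targets 28 were higher and 7 lower at 24 h (45.6% and 53.1% of all genes), and 4 were 2-fold higher and 1 2-fold lower (2.23% and 3.05% of all genes). The median was 0.42 after 0.19 and 0.14. PMEPA1, which retains Smads and dampens the pathway, read 2.6, 7.8 and 75.3 in siControl and 17, 21.9 and 279.8 in siHNF4a (1.89 ± 0.40), low at 0 and 1.5 h in both arms. GDF15, a secreted TGF-beta family member, read 1734, 2329.7 and 3288 in siControl and 2552, 2912 and 7350.2 in siHNF4a (1.16 ± 0.16), and FST, the activin antagonist follistatin, 788, 1166 and 991 in siControl and 965, 992 and 2028 in siHNF4a (1.03 ± 0.21). INHBB, an activin subunit, was 2-fold lower, at 70.3, 135 and 134 in siControl and 136, 127 and 59.6 in siHNF4a. The immediate Smad targets SMAD7 (0.22), SKIL (0.11) and ID1 (0.17), given although outside the naming rule, were close to 0. None of 14 receptor and Smad genes reached 2-fold, and TGFBR2, the receptor that binds TGF-beta, read 1869, 2145 and 2449.7 in siControl and 2764, 2752 and 3908 in siHNF4a, higher at each time (0.67 ± 0.16 at 24 h).

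Matrix, protease and integrin genes had 36 of 47 higher and 10 lower (45.6% and 53.1% of all genes), 4 of them 2-fold higher and none 2-fold lower (2.23% and 3.05% of all genes), with a median of 0.37 at 24 h and of 0.06 and -0.06 earlier. MMP2, a gelatinase, read 35.8, 31.8 and 37.9 in siControl and 40.6, 31.5 and 209 in siHNF4a, between 31.5 and 40.6 on 5 arrays and high in siHNF4a at 24 h (2.46 ± 0.37). Its other probe set, near the floor, read 16.0 and 14.0. TIMP1, the inhibitor of such proteases, read 878, 837 and 2508 in siControl and 799, 811 and 5154 in siHNF4a: both arms were highest at 24 h, and siHNF4a was then 2.05-fold above siControl (1.04 ± 0.17). LOXL2, which cross-links collagen, read 45.9, 58.8 and 115 in siControl and 80.6, 51.5 and 309 in siHNF4a, and PLAU, the urokinase, 29.6, 45.7 and 69.9 in siControl and 31.4, 37.4 and 155 in siHNF4a. THBS1, an activator of latent TGF-beta, read 464, 478 and 983 in siControl and 959.5, 890.1 and 1944 in siHNF4a, a difference of about the same size at all 3 times (1.05, 0.90 and 0.98), with 4 of 6 other probe sets of the same sign. FN1, fibronectin, named as a member with a small difference, was at 0.10.

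Actin, epithelial and progenitor genes gave a mixed picture. Of 31 actin cytoskeleton genes 23 were higher and 2 were 2-fold higher, against 45.6% and 2.23% of all genes. The median was 0.12 at 24 h, under its 0.32 at 0 h. PALLD, which bundles actin, read 124, 101 and 118 in siControl and 179, 183 and 328 in siHNF4a (1.47 ± 0.29), and VIM, vimentin, was dim at 14.6 in siControl and 25.8 in siHNF4a. Of 25 epithelial junction and keratin genes 14 were higher and 11 lower, against 45.6% and 53.1% of all genes. CLDN6, a claudin of embryonic epithelium, read 58.7, 57.6 and 102 in siControl and 114, 88.2 and 318 in siHNF4a (1.64 ± 0.32), while GJB1, the hepatocyte gap junction protein, read 252, 276 and 187 in siControl and 209, 172 and 92.9 in siHNF4a (-1.01 ± 0.28). KRT19, a biliary keratin, read 2353, 2555 and 3686 in siControl and 3199.9, 3405 and 6588 in siHNF4a (0.84 ± 0.15), though its other probe set read 14.3 and 9.60, and KRT23 read 2008 in siControl and 3502 in siHNF4a at 24 h.

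Hepatoblast, progenitor and biliary markers had 12 of 15 higher and 1 of 15 2-fold higher, against 45.6% and 2.23% of all genes. Their median was 0.38 after 0.23 and 0.24. By limma 4 of the 15 were higher at 24 h, against 0.377% of all genes. SOX4, a progenitor transcription factor, read 889, 761 and 1963 in siControl and 1284, 1231 and 4039 in siHNF4a (1.04 ± 0.17), and 4 of its 5 other probe sets were also higher. CD24, a surface sialoglycoprotein, read 2147, 2052 and 3512 in siControl and 4038, 4152 and 6802 in siHNF4a, with nearly the same difference at 0 h (0.91), 1.5 h (1.02) and 24 h (0.95) and the same sign in all 5 other probe sets. JAG1, a Notch ligand of bile duct development, read 2397, 2554 and 3191 in siControl and 2682, 3304 and 6379 in siHNF4a (1.00 ± 0.16), with all 4 other probe sets higher. LGR5 read 975 in siControl and 1395 in siHNF4a and DLK1 2248 in siControl and 3213 in siHNF4a at 24 h, differences of 0.52 and 0.52. These markers are bright, where the 2-fold line is rarely crossed.

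Single genes outside the lists stood high in siHNF4a at 24 h. EEF1A2, a translation elongation factor of muscle and nerve, read 26.1, 16.2 and 16.6 in siControl and 29.2, 16.9 and 118 in siHNF4a (2.83 ± 0.41). CRABP2, a retinoic acid carrier, read 14.5, 20.3 and 31.7 in siControl and 24, 37.6 and 194 in siHNF4a (2.61 ± 0.39). CD3D, a chain of the T cell receptor complex, read 39.8, 28.6 and 107 in siControl and 56.3, 59.2 and 483 in siHNF4a (2.18 ± 0.36), while CD3E read 12.8 in siControl and 18.5 in siHNF4a at 24 h. TFF1, a mucosal trefoil peptide, read 70.8 in siControl and 303 in siHNF4a and PDLIM4, an actin-binding protein, 58.7 in siControl and 252 in siHNF4a at 24 h, with 3 of 3 other probe sets of PDLIM4 higher. TUBB2B, a tubulin, and TULP3, a ciliary adaptor, were higher at 0 h already, by 1.52 and 1.66, and by 2.10 and 2.08 at 24 h. PAEP, a secreted lipocalin, had differences of 1.03 and -0.97 in the earlier pairs and of 2.31 ± 0.62 at 24 h.

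The largest turns between the earlier times and 24 h were read as values, since the test of the change called no gene. TXNIP, a thioredoxin inhibitor whose transcript follows glucose, read 640.1, 489.9 and 515 in siControl and 1054, 734 and 167 in siHNF4a. It was higher with the HNF4A siRNA at 0 h (0.72) and 1.5 h (0.58) and lower at 24 h (-1.63 ± 0.21), a change of -2.28 ± 0.25, and both other probe sets were likewise higher earlier and lower at 24 h. ARRDC4, an arrestin-domain protein under the same glucose-sensing factor as TXNIP, read 97.6, 89.7 and 52.5 in siControl and 181, 147 and 21.3 in siHNF4a and turned by -2.10 ± 0.41. Upward turns were largest in dim genes, as in MAF, a leucine zipper factor (49.3, 57.4 and 21 in siControl and 19.2, 14.1 and 37.4 in siHNF4a), and RELT, a TNF receptor family member (32.1, 42.5 and 17.8 in siControl and 23.6, 32.5 and 68.7 in siHNF4a). MFAP2, a microfibril protein, read 28.6, 39.8 and 47.4 in siControl and 31, 24.2 and 149 in siHNF4a, and only the siHNF4a array at 24 h was above 100. FOLR1, a folate receptor, read 101, 617 and 1019 in siControl and 968, 1215 and 1134 in siHNF4a. Its difference was large at 0 h, where the siControl array stands apart in the AFFX-HUMRGE control (its part was not tested), and 0.15 at 24 h. The other probe set of FOLR1, near the floor, does not bear this out. It read 12.8, 10.9 and 20.2 in siControl and 10.9, 16.8 and 7.1 in siHNF4a.

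Stress and housekeeping lists gave no 2-fold difference at 24 h. None of 29 genes of the integrated and endoplasmic reticulum stress responses, 19 hypoxia-responsive genes, 27 ribosome biogenesis genes and 36 respiratory chain genes reached 2-fold, with medians of 0.16, 0.18, 0.08 and -0.11. PPP1R15A, which ends the integrated stress response, read 78.3 in siControl and 151 in siHNF4a (0.95 ± 0.36) and ATF5 78.5 in siControl and 41.5 in siHNF4a (-0.92 ± 0.34). UQCRC2, of respiratory complex III, read 4049 in siControl and 2758 in siHNF4a (-0.55 ± 0.15) and NDUFA5, of complex I, 949 in siControl and 606 in siHNF4a (-0.65 ± 0.21). DDIT4, an inhibitor of mTORC1, read 179.8, 1003 and 656 in siControl and 362, 1109.8 and 1199.6 in siHNF4a and varied more over time than between the arms. Of 30 lists, at least 5 had a median whose sign depended on the processing, all 5 with medians of 0.30 or less in size. A change of sign was counted only where the median moved by more than its spread over the times. The full number of lists that changed sign is therefore not known.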

How the data were processed

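Biotin-labelled cRNA was hybridised to 6 arrays, per the labels. The deposited values are linear intensities, MAS5 (version 5.0) signals that the authors computed with GCOS, per the submitters' processing notes. Each array had a 2% trimmed mean of 100, so signals were not rescaled. Of 54675 probe sets 41097 had 1 gene symbol in the platform annotation, 1801 had several and 11777 none, and only the first kind was named. Promoters and their builds came from RefSeq, where 9735 of 11921 genes matched.

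Signals below 12.9 were set to 12.9 and log2 was taken. With 1 array a side the 24 h difference and its 2-fold counts have no replicate check; a spread borrowed from the earlier times came from limma, as follows. limma 3.58.1 (R 4.3.3; lmFit, eBayes with trend, Benjamini-Hochberg over 11921 genes, threshold 0.05) was fitted on 6 arrays with siRNA, time and siRNA at 24 h as terms. On simulated data with 200 changed genes it recovered 45.5% of 2-fold and 95.0% of 4-fold changes at 24 h, with 3 and 8 false calls. The simulation took limma's own spreads as true, so it does not give the recovery in the real data. Labels give no separate cultures, so errors may be technical.

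Named genes were the 15 highest and 15 lowest 24 h differences above 12.9 on both arrays, up to 5 per direction at the floor, the 10 largest turns per direction (above 12.9 on all 6 arrays), up to 6 members per list, and the markers. Members, the 30 lists (760 genes counted, some in more than 1 list) and rules were chosen with earlier results of these data known. Alternatives were quantile and median scaling, other floors, a pseudocount, other probe set choices, no filter and no trend. The floor at the 75th percentile and the choice of genes without the siControl 0 h array were added after seeing the data. Figures were drawn with matplotlib 3.10.9. Probe-level files and detection calls were not used here.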

Additional observations from a re-analysis of the deposited data

Results flagged for a closer look

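Probe sets with no gene symbol or with several took no part in the comparison. Of 13522 such probe sets 1323 had a signal above 100 on 1 of the 24 h arrays, and 31 of these were at least 2-fold higher in siHNF4a, above their level in the control, while 22 were at least 2-fold lower. They were assigned to no gene here, and whether some of them measure a gene named above was not checked. With 1 array a side these counts have no test.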

How the results depend on the processing

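No paired analysis was possible because no group had a replicate to pair by number; the limma fit sets the arms side by side at each time through its time term. Of the 101 named genes at 2-fold, 98 were reversed in sign under no alternative run. A gene that an alternative did not measure, or whose difference became 0 there, also counted as not reversed. BICDL1, PEX11A and ACSM3 turned to -0.589, 0.00529 and 0.173 without probe sets ending in _x_at or _s_at, where another probe set stands for the gene. The counts of 364 lower and 266 higher genes became 592 and 462 under a floor at the 40th percentile of signals, 227 and 164 at the 60th, 93 and 83 at the 75th and 205 and 173 under a pseudocount of 12.9. They were 137 and 110 over genes with a signal above 100, and 200 lower genes were left with all probe sets of a gene averaged. Scaling moved the median of all genes by no more than 0.1 on the log2 scale.

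The limma counts of 110 genes at 24 h, 222 at the earlier times and 0 for the change were less stable, and the cause was not tested. At 24 h limma gave 73 genes under quantile normalization, 8 under median scaling, 215 with the floor at the 40th percentile, 0 at the 75th, 420 with a pseudocount, 0 with the mean of probe sets, 0 without probe sets ending in _x_at or _s_at, 656 with no filter and 0 without the trend. At the earlier times the counts were 101 under median scaling, 342 and 42 under floors set at the 40th and 75th percentiles, 609 with a pseudocount, 0 with the mean of probe sets, 15 without the suffixed probe sets, 0 with no filter and 0 without the trend. For the change they were 4 with the floor at the 40th percentile, 24 with a pseudocount and 639 with no filter.

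List medians changed sign for bile acid genes (0.113, floor at the 75th percentile), plasma carriers (-0.0336 under quantile normalization and -0.0185 with the mean of probe sets), glucose genes (-0.00522, quantile), cytokines (-0.0580 without suffixed probe sets) and hepatocyte markers (-0.0290, quantile). Moves no larger than a median's spread over the times were not counted, so medians near 0 in other lists may also have changed sign. Signals near 12.9 limit what can be read of dim genes.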
